A study of Mus musculus with 15 samples.

Results

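The contrast described here sets the response of mouse embryonic stem cells to losing TAF5L or TAF6L against their response to losing MYC. For each gene, the Taf effect was the mean of its log2 fold changes in Taf5l-KO and Taf6l-KO, both against the J1 (for Taf KOs) libraries. The Myc effect was the log2 fold change of cMyc-KO against the J1 (for Myc KO) libraries, and the contrast was the Taf effect minus the Myc effect. A gene higher in the contrast therefore rose more, or fell less, after loss of the Taf genes than after loss of Myc. All 15 libraries of the series entered the contrast. The genes were the 20121 of 37310 rows that code for proteins and carry polyadenylated mRNAs, without the histone and small RNA rows, and 13461 of them held enough counts to be tested.

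The series compared RNA levels in J1 cells, an established mouse embryonic stem cell line, in 5 groups of 3 libraries. The 3 knockout groups lacked Taf5l, Taf6l or cMyc, and 2 wild-type groups without a knockout served as controls, 1 per experiment. Every group was grown with LIF and 15% fetal calf serum, and no other agent separated the groups. The labels do not say whether the 3 libraries of a group were separate cultures, so p-values measure the spread between these libraries, and they do not say whether a knockout group is 1 clone. The sample names of the 3 cMyc-KO libraries share a code that the labels do not explain. The header of the authors' TPM table, not used here, carries other Myc codes on 2 of its columns, so more than 1 clone among these libraries cannot be told apart from a naming difference.

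SAGA is a chromatin complex that RNA polymerase II promoters use to start transcription. It acetylates histone H3 through KAT2A or KAT2B, removes ubiquitin from histone H2B through USP22, and holds TAF5L and TAF6L in its core, where they take the place that TAF5 and TAF6 have in TFIID. MYC is a transcription factor that pairs with MAX, binds E-box DNA and is known in embryonic stem cells for sustaining growth, ribosome production and nucleotide synthesis.

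Library totals ran from 14935631 to 27650813 estimated counts. The genes of the contrast held 74.6% to 80.8% of the counts in the 9 libraries of the Taf experiment and 93.8% to 94.2% in the 6 libraries of the Myc experiment, although the labels give both experiments the same protocol. Replicates varied more in the Myc experiment, with a biological coefficient of variation of 8.32% there and 3.02% among the Taf libraries. The library cMyc-KO replicate 3 stood apart most: its counts differed from those of replicates 1 and 2 with chi-square values of 33.4 and 25.9 for each degree of freedom, and replicates 1 and 2 differed by 2.73. To a lesser degree, J1 (for Myc KO) replicate 3 also differed from replicates 1 and 2 of its group, by 8.80 and 6.38. Those replicates differed from each other by 2.74. Of 8 embryonic stem cell markers, the lowest group mean was 284 FPKM (fragments per kilobase, scaled to depth). Of 18 feeder fibroblast markers, Lum, Dcn and Twist2 were listed at 0 in every library. Others were present: from 7 markers in J1 (for Taf KOs) to 10 in J1 (for Myc KO) had a group mean of at least 1 FPKM. The 18 markers summed to between 18.1 and 29.3 FPKM per library. Because the RNA is from bulk cultures, fewer cells of a type and less RNA per cell cannot be told apart in any of the values below.

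The Taf effect and the Myc effect were called in opposite directions for 1173 of the 13461 genes tested and in the same direction for 1432. Nrp2, Lefty1 and Lefty2 rose in both Taf knockouts and fell in cMyc-KO, while Klf4, Tbx3 and Stag3 fell in the Taf knockouts and rose in cMyc-KO. Of the 13461 genes, 2787 were higher in the contrast (20.7%) and 2766 were lower (20.5%) at an adjusted p under 0.05 with edgeR, 41.3% in all. A difference of at least 2-fold together with that threshold was reached by 1095 genes (8.13%). Measured without the model, the 6 Taf knockout libraries all lay on one side of the 3 cMyc-KO libraries, each library set against its own wild types, for 6202 genes (46.1%). Knockout libraries of an experiment share the same wild-type mean, so a shift in that mean moves them together. The share is a description, and no background share was computed for it.

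The Myc effect was the wider of the arms. Across genes, its SD was 0.55 on the log2 scale against 0.38 for the Taf effect, and it was the larger in size for 3797 (68.4%) of the 5553 genes called in the contrast. The Taf effect is a mean over both Taf knockouts, and replicates varied more in the Myc experiment. These sizes are therefore not like for like. The Myc effect itself called 3294 rises and 3178 falls (48.1%), and the mean Taf effect called 2248 rises and 2202 falls (33.1%). Both arms called 2605 genes, which is 58.5% of the Taf calls and 40.3% of the Myc calls, 1432 in the same direction and 1173 in opposite directions. The share called per arm depended on the fit. With voom and a weight per experiment, the mean Taf effect called 41.3% of genes and the Myc effect 39.4%. Rises made up 50.5% of the Taf calls under TMM scaling but 61.1% when libraries were scaled by their totals, which moved the median Taf effect of all genes to 0.04. Across the 13461 genes the Taf and Myc effects had a Pearson r of 0.06 and a Spearman rho of 0.08, a description over genes, which are not independent replicates. The knockout and control libraries of the arms are separate, but each arm is also its own experiment, so genotype and experiment cannot be told apart in what differs between the arms.

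Sorting genes by which arm was called showed how each contrast call arose, and these groups rest on the edgeR calls of each arm. Among genes higher in the contrast, 1278 (45.9%) fell in cMyc-KO with no called Taf effect, 664 rose in the Taf knockouts and fell in cMyc-KO, and 484 rose in the Taf knockouts alone. Among genes lower in the contrast, 1336 (48.3%) rose in cMyc-KO alone, 577 fell in the Taf knockouts alone, and 509 fell in the Taf knockouts and rose in cMyc-KO. A further 971 genes moved the same way in both arms and were not called in the contrast, 459 falling and 512 rising. The plot of Taf effects against Myc effects shows these groups around the diagonal on which both effects are equal.

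**Figure D1:**
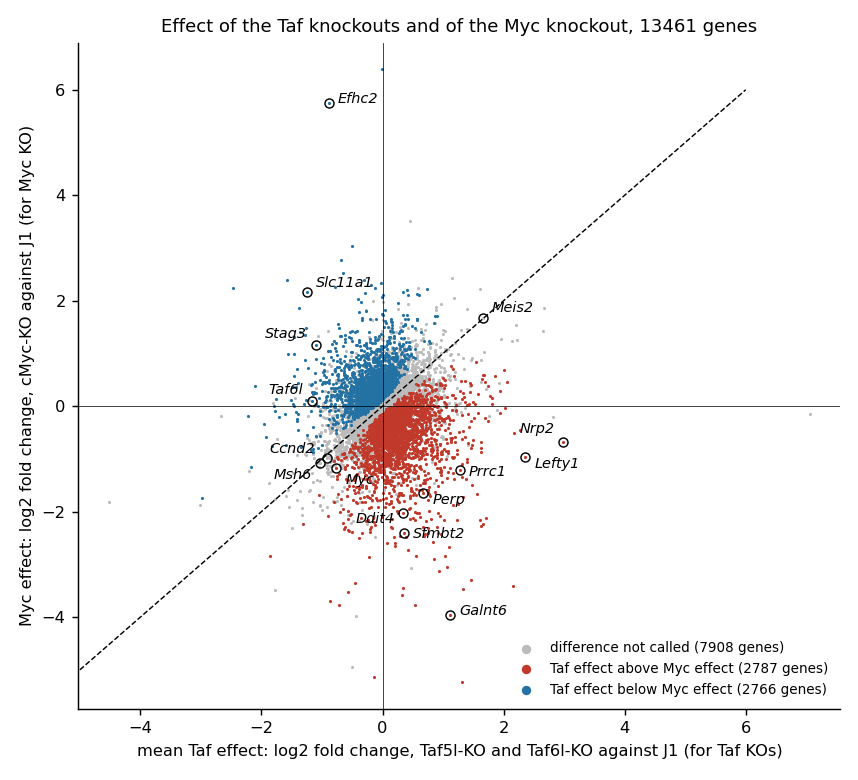
Mean Taf effect (horizontal axis, log2 fold change) against Myc effect (vertical axis, log2 fold change) for the 13461 genes tested; the dashed line marks equal effects and circled genes are named in the text. Genes higher in the contrast (2787, red) lie below the line and genes lower in the contrast (2766, blue) above it.

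The wild-type libraries of the experiments were not at the same level for many genes, and this enters the contrast directly, because a contrast value is the difference between the knockouts plus the difference between the wild types. Among the 2787 genes higher in the contrast, wild-type levels were higher in J1 (for Myc KO) than in J1 (for Taf KOs) for 2031 (72.9%), with a median difference of 0.34 (log2). Among the 2766 genes lower in the contrast, they were lower for 1712 (61.9%), with a median of -0.13. Over all 13461 genes the share that was higher was 50%, with a median of 0.00. The contrast used the same term, so these shares are a description, and wild-type levels are given beside some of the genes named below, not all.

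The targeted transcripts were lower in the knockouts of their own genes. Taf5l stood at 53.7, 53.2 and 52 CPM (counts scaled to the total of each library) in the Taf5l-KO libraries, at 108, 110 and 113 in Taf6l-KO and at 109, 106 and 105 in their wild types, so the Taf5l-KO libraries were apart from the others. Taf6l, from 33.4, 32.6 and 31.2 CPM in the wild types, was at 8.07, 8.85 and 7.47 in Taf6l-KO and also fell in Taf5l-KO, to 23.3, 26.7 and 26.6. Myc fell by 1.17 ± 0.06 (SE, log2) in cMyc-KO, where 35.1, 32.2 and 31 CPM remained of 71.3, 75.7 and 73.9 in the wild types.

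Myc mRNA also fell in both Taf knockouts, by 0.69 in Taf5l-KO and 0.84 in Taf6l-KO. The 3 wild types had 87.2, 81.2 and 89 CPM, and the 6 knockout libraries lay between 44.5 and 54.1, with no overlap. The fall was smaller than in cMyc-KO, and Myc was higher in the contrast by 0.41 ± 0.08 (adjusted p = 4.43e-04). Mycn, the family member that embryonic stem cells also express, rose in the Taf knockouts from 145 ± 2.96 CPM (SD, n = 3) to 187 ± 4.03 and 183 ± 2.52. It fell slightly in cMyc-KO, from 220 ± 6.92 to 202 ± 11, and its contrast was 0.48 ± 0.06 (adjusted p = 3.60e-06). Of 13 tested genes of the MYC network, 4 were higher and 1 was lower in the contrast, against 20.7% and 20.5% of all genes. The 4 higher genes include the targeted Myc. The calls of Max, the partner of MYC (-0.17), and Mlxipl, a glucose-responsive factor (1.18), were each lost under at least 8 alternative settings.

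Among 22 tested SAGA genes, 3 were higher and 8 were lower in the contrast, against 20.7% and 20.5% of all genes. The median contrast was -0.10 against -0.01 over all genes. The 8 lower genes include the targeted Taf5l and Taf6l, whose falls were set by the design. Usp22, the deubiquitinase, had 209, 219 and 212 CPM in the Taf wild types, 234, 223 and 230 in Taf5l-KO and 260, 267 and 266 in Taf6l-KO. In the Myc experiment it fell from 203, 208 and 203 CPM to 153, 152 and 145. The Taf knockout libraries all lay above their wild types and the cMyc-KO libraries below theirs, and the contrast was 0.66 ± 0.05 (adjusted p = 1.63e-08). The Taf knockouts were unequal: the rise was 0.31 in Taf6l-KO and 0.10 in Taf5l-KO, where it was not called, and their difference was called. Usp22 lies on chromosome 11, whose median effect was 0.15 in Taf6l-KO and -0.06 in Taf5l-KO. Taf9, a histone-fold subunit that SAGA shares with TFIID, moved the other way: it fell from 107 ± 1.89 CPM to 80.2 ± 2.6 and 82 ± 2.61 in the Taf knockouts and rose from 99.6 ± 4.86 to 120 ± 5.23 in cMyc-KO (contrast -0.67 ± 0.06). Trrap, the large scaffold that binds activators such as MYC, rose in the Taf knockouts (0.25) and was higher in the contrast (0.38), from wild types at 236 and 303 CPM in the Taf and Myc experiments. The Taf knockouts and cMyc-KO themselves differed by 0.01 for Trrap. Kat2b (-0.32), Taf10 (-0.30) and Ccdc101 (-0.34) were lower, and all of them rose in cMyc-KO, by 0.22, 0.23 and 0.20. Kat2b and Taf10 also fell in Taf6l-KO (-0.20 and -0.21) but not in Taf5l-KO (0.00 and 0.06). For these genes Taf5l-KO alone was not called against the Myc effect. The Taf effect of Ccdc101 (-0.15) was not called. J1 (for Myc KO) minus J1 (for Taf KOs) was -0.81 (log2) for Kat2b, 0.11 for Taf10 and 0.39 for Ccdc101. The Taf knockouts minus cMyc-KO gave 0.49, -0.41 and -0.72, so for Kat2b the sign was opposite to that of the contrast. Kat2a, the main acetyltransferase of the complex, had a contrast of 0.11 with a 95% interval from -0.02 to 0.24. No TFIID gene was higher and 6 of 13 were lower, led by Taf15 (-0.79) and the TATA-binding protein gene Tbp (-0.70), both of which rose in cMyc-KO. Wild-type levels in the Myc experiment minus those in the Taf experiment were 0.58 (log2) for Taf15 and -0.60 for Tbp. The Taf knockouts minus cMyc-KO gave -1.37 and -0.09.

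The largest positive values came from different arms. The named genes were the 8 with the largest contrasts in each direction among well-counted genes whose knockout libraries did not overlap. Nrp2, a semaphorin and VEGF co-receptor, had 5.76, 4.43 and 5.03 CPM in the Taf wild types, 36.4, 35.5 and 34.5 in Taf5l-KO and 47, 45.1 and 42.7 in Taf6l-KO. In the Myc experiment it fell from 19.6, 18.9 and 21.9 CPM to 13.1, 13.1 and 11.8. Its contrast was 3.65 ± 0.12 (adjusted p = 1.23e-12), carried mainly by the Taf effect of 2.98. Galnt6, which starts mucin-type glycosylation, had the largest value of these genes, 5.07 ± 0.21 (adjusted p = 1.01e-11), carried mainly by the Myc effect of -3.96. It was at 16.9, 19 and 18.3 CPM in J1 (for Myc KO) and at 1.46, 1.24 and 0.81 in cMyc-KO, while the Taf wild types had 2.55, 3.88 and 2.77. Galnt6 rose in Taf5l-KO to 4.3, 4.87 and 4.68 CPM and further in Taf6l-KO to 9.86, 9.87 and 9.45, and the knockouts differed from each other (adjusted p = 9.75e-05). With a mean of 129 counts, Galnt6 met the count minimum through the J1 (for Myc KO) libraries.

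Lefty1 and Lefty2, secreted inhibitors of Nodal, were high in every Taf knockout library. Lefty1 had 3.02, 2.22 and 2.35 CPM in the Taf wild types, 14.2, 12.3 and 12.2 in Taf5l-KO and 12.2, 13.3 and 13.8 in Taf6l-KO. It fell from 9.57, 9.1 and 10.9 CPM to 5.95, 5.86 and 3.56 in cMyc-KO, and the contrast was 3.32 ± 0.22 (adjusted p = 4.06e-09). Lefty2 followed with 2.72 ± 0.18. Nodal, their ligand, was higher by 1.10 through the Myc arm: it fell by 1.26 in cMyc-KO, from 140 ± 3.28 to 58.2 ± 4.51 CPM, and by 0.16 in the Taf knockouts, from 26.8 ± 1.72 CPM. In all, 7 of 16 tested Nodal pathway genes were higher and 2 lower, against 20.7% and 20.5% of all genes. The higher genes included the SMAD co-repressor Skil (0.92) and the SMAD partner Foxh1 (0.54). J1 (for Myc KO) minus J1 (for Taf KOs) was 1.48 (log2) for Foxh1 and -0.18 for Skil. The Taf knockouts minus cMyc-KO gave -0.96 and 1.10.

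Sfmbt2, a Polycomb-related gene, was at 118, 118 and 108 CPM in J1 (for Myc KO) and at 24.2, 19.8 and 21.1 in cMyc-KO. In the Taf experiment it went from 37.7, 36 and 36.8 CPM to between 42.1 and 52.4, giving a contrast of 2.75 ± 0.09. Smoc1, a matrix protein that modulates BMP signals (3.07), shows a mean over unequal knockouts, with 0.08 in Taf5l-KO and 1.43 in Taf6l-KO. Urgcp (3.03) and Gatsl3 (2.62) completed the 8, both with Myc effects below -2. Klhl13, an adaptor of a ubiquitin ligase, moved by nearly the same amount in opposite directions: it rose from 49 ± 0.444 CPM to 99.1 ± 5.01 and 99 ± 3.02 in the Taf knockouts and fell from 48.2 ± 3.56 to 21.5 ± 1.42 in cMyc-KO (contrast 2.18 ± 0.08). The p53 relative Trp73 did the same with effects of 1.31 and -1.10, from wild-type levels of 3.08 ± 0.599 and 21.1 ± 1.71 CPM. Prrc1 had a contrast of 2.49 with effects of the same kind.

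Efhc2, a gene for a protein of ciliary microtubules, had the lowest contrast of these genes, -6.63 ± 0.36 (adjusted p = 2.87e-10). It was at 67.6, 71.1 and 101 CPM in cMyc-KO and at 3.02 or less in each of the other 12 libraries, so the value rests on its activation in the cMyc-KO group. Efhc2 met the count minimum through that group, and its Taf effect rests on low counts. Its fall in the Taf knockouts (-0.89) was called with all libraries but not without J1-Taf replicate 2. Slc11a1, a divalent metal transporter of macrophages, fell from 6.83, 6.03 and 5.79 CPM to between 1.89 and 3.17 in the Taf knockouts and rose from 2.77, 2.95 and 3.54 to 13.5, 14.6 and 13.7 in cMyc-KO (contrast -3.40 ± 0.19). The meiotic cohesin gene Stag3 fell from 28.5, 29 and 26.9 CPM to between 11.5 and 15.3 in the Taf knockouts and rose from 8.75, 8.95 and 10.3 to 21.3, 21.9 and 19.6 in cMyc-KO (contrast -2.26 ± 0.12). For Slc11a1 and Stag3 no Taf knockout library reached a Taf wild type. Slc11a1, with a mean of 108 counts, also met the count minimum through the cMyc-KO group. Rab6b, a Golgi trafficking GTPase (-2.03), Xaf1, an interferon-induced gene (-2.03), Gpr83, an orphan receptor (-2.02), and Fmr1nb (-2.02) also fell in the Taf knockouts and rose in cMyc-KO.

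**Figure D2:**
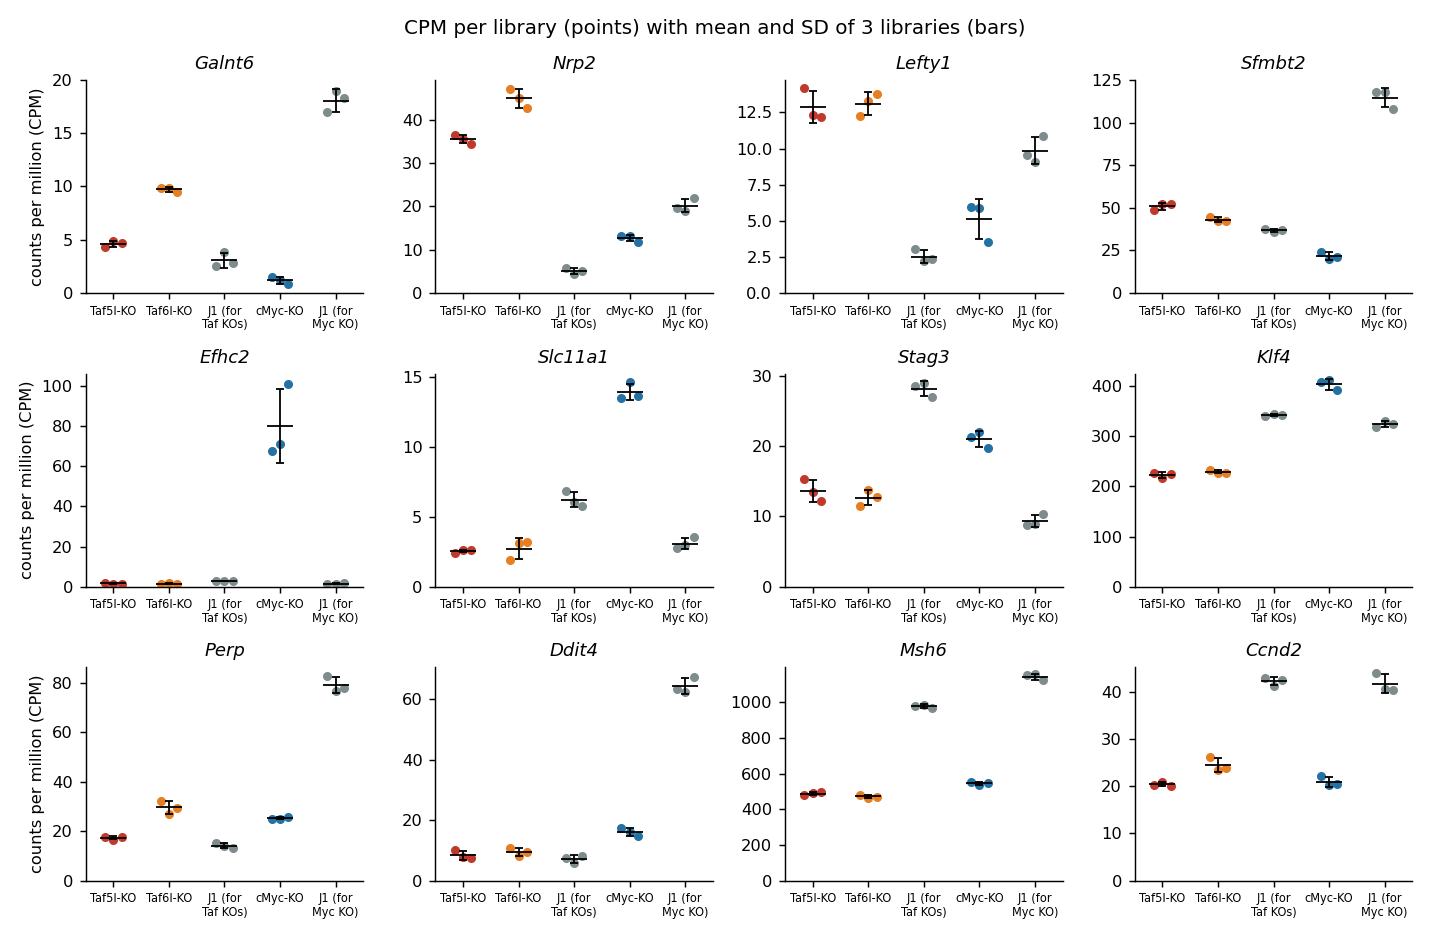
CPM (vertical axes, from 0) of 12 genes in each of the 15 libraries, in 5 groups; points are libraries and bars give the mean and SD of 3 libraries. Nrp2 and Lefty1 are high in the Taf knockouts, Efhc2 in cMyc-KO, and Perp and Ddit4 in the J1 (for Myc KO) libraries, while Msh6 and Ccnd2 are low in all 3 knockouts.

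A further set of genes fell in both arms and was not called in the contrast. Msh6, a DNA mismatch repair gene, went from 980, 987 and 965 CPM to between 462 and 494 in the Taf knockouts and from 1150, 1156 and 1122 to 555, 535 and 545 in cMyc-KO. Its contrast was 0.04, with a 95% interval from -0.05 to 0.13. Ccnd2, cyclin D2, went from 43, 41.4 and 42.6 CPM to between 20 and 26.2 and from 44.1, 40.6 and 40.5 to 22.2, 20.3 and 20.5 (contrast 0.08, interval -0.09 to 0.24). Thumpd2 (-1.04 and -1.15 for the Taf and Myc effects), Fez2 (-1.13 and -0.98) and Zfp36l2, an mRNA decay factor (-0.92 and -0.95), also fell in both, and these 3 genes and Msh6 lie on chromosome 17. Of the 459 genes that fell in both arms without a called contrast, 58 (12.6%) lie on that chromosome, which holds 4.82% of the genes tested.

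The homeobox gene Meis2 rose in both arms, from 5.96, 7.14 and 5.62 CPM to 26.6, 26.2 and 23.8 in Taf5l-KO and 14.1, 16.7 and 15.4 in Taf6l-KO, and from 12.9, 12.3 and 11.6 to 36.7, 41 and 39.8 in cMyc-KO. Its contrast was -0.02 (interval -0.29 to 0.24), but this mean hid a difference between the Taf knockouts, with effects of 2.02 and 1.29. Fam13c (1.03 and 1.08) rose in both arms as well.

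Targets of p53, the stress-activated factor that halts the cell cycle and starts apoptosis, stood furthest to the higher side of the 28 lists. Of 30 tested, 23 were higher in the contrast and none was lower in it, against 20.7% and 20.5% of all genes, and the median contrast was 0.80. These all-gene shares are also the background of the lists below. Perp, a desmosomal apoptosis gene (2.32), Ephx1, an epoxide hydrolase (1.89), Btg2, an anti-proliferative gene (1.41), the apoptosis gene Bbc3 (1.29) and the cell cycle inhibitor Cdkn1a (0.99) were among them, as was Mdm2, the ubiquitin ligase of p53 (0.86). The Myc arm contributed most: 24 members fell and 2 rose in cMyc-KO (median -0.61), while 16 rose and 1 fell in the Taf knockouts (median 0.18). Of all genes, 23.6% fell and 24.5% rose in cMyc-KO, and 16.7% rose and 16.4% fell in the Taf knockouts. By library, the median over the list lay between 0.06 and 0.12 in Taf5l-KO, between 0.24 and 0.27 in Taf6l-KO and between -0.62 and -0.54 in cMyc-KO.

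The wild types also differed for the p53 targets. In J1 (for Myc KO), 27 of the 30 were higher than in J1 (for Taf KOs), with a median difference of 0.94 (log2), and for 24 of 30 the wild types differed by more than the knockouts did. Perp had 15.1, 14.2 and 13.2 CPM in the Taf wild types, 17.8, 16.6 and 17.5 in Taf5l-KO and 32.4, 27 and 29.5 in Taf6l-KO. In the Myc experiment it had 82.8, 76.7 and 77.9 CPM in the wild types and 25, 24.9 and 25.8 in cMyc-KO. The cMyc-KO libraries thus stayed above the Taf5l-KO libraries and just under those of Taf6l-KO, and only the J1 (for Myc KO) libraries stood far from the rest. Set against each other directly, the Taf knockouts had lower levels of these genes than cMyc-KO, by a median of 0.34, which is opposite in sign to the contrast. The part of the wild-type difference in the called values was not tested.

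Hypoxia-inducible genes showed the same arrangement. Of 26 tested, 14 were higher and 2 lower in the contrast (median 0.55), and 23 of 26 had higher wild-type levels in the Myc experiment (median 1.02). Ddit4, an mTORC1 inhibitor that the p53 list also holds, had 7.64, 5.72 and 8.13 CPM in the Taf wild types and 63.5, 62.6 and 67.5 in J1 (for Myc KO), and fell to 17.3, 16 and 14.7 in cMyc-KO (contrast 2.35 ± 0.16). Stc2, a secreted glycoprotein (1.91), Egln3, an oxygen-sensing prolyl hydroxylase (1.71), and Vegfa, an angiogenic growth factor (0.67), were higher with falls in cMyc-KO. Ak4, a mitochondrial adenylate kinase, was higher mainly through its rise in the Taf knockouts, from 86.4 ± 1.64 CPM to 123 ± 3.42 and 172 ± 3.29, against a change from 111 ± 4.28 to 96.1 ± 2.33 in cMyc-KO (contrast 0.96 ± 0.06). Of 20 glycolysis genes, 6 were higher, among them Pfkl (0.69) and Tpi1 (0.49), and 2 were lower, Ldhb (-0.74) and the lactate transporter Slc16a1. Without cMyc-KO replicate 3 the number lower was 6. Wild-type levels of 16 of the 20 were higher in the Myc experiment (median 0.74).

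**Figure D3:**
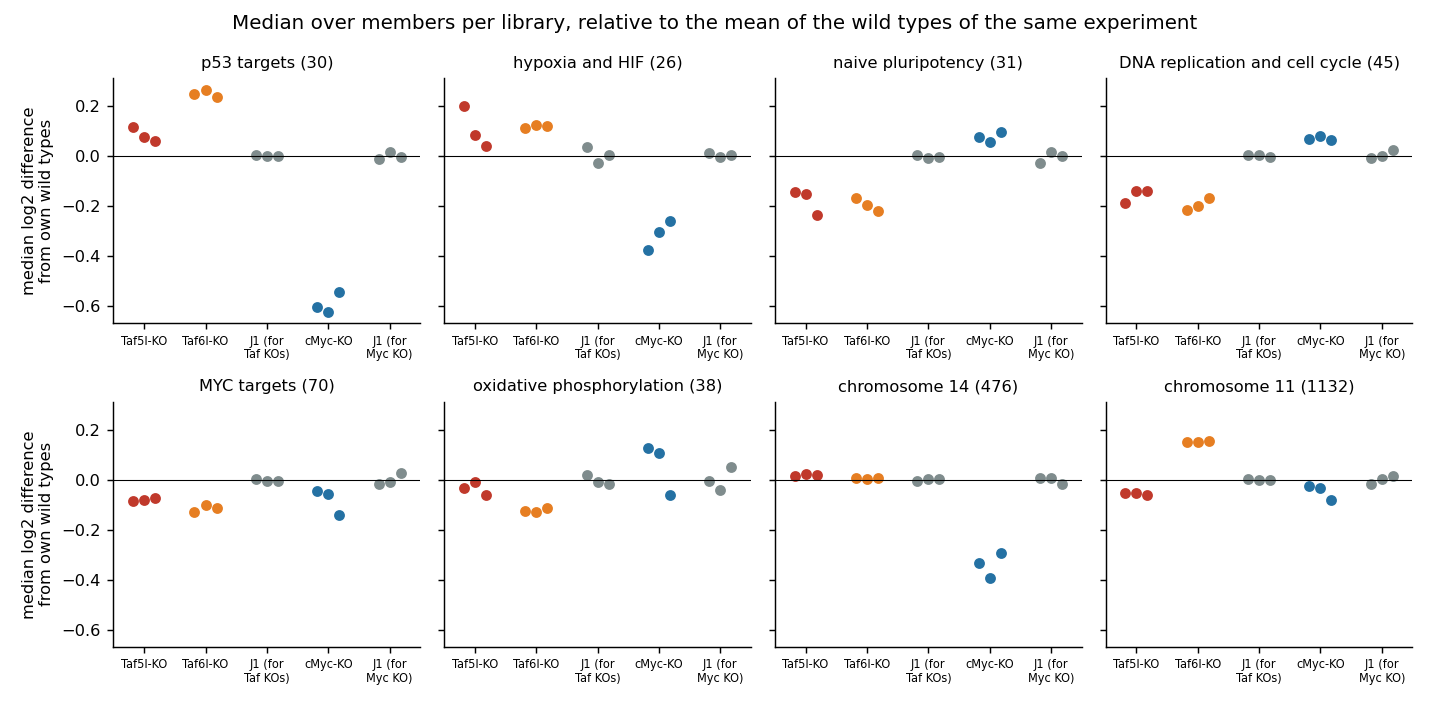
Median over the members of 8 gene sets in each library (vertical axis, log2 difference from the mean of the wild types of the same experiment; number of genes tested in brackets), with 3 points per group. For p53 targets and hypoxia genes the cMyc-KO points lie below 0 and the Taf knockout points above it, and for naive pluripotency and DNA replication genes the order is reversed.

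Genes of naive pluripotency, the state that LIF sustains in these cells, leaned to the lower side. Of 31 tested, 14 were lower and 6 higher in the contrast, against 20.5% and 20.7% of all genes. In the Taf knockouts 18 fell and 6 rose, against 16.4% and 16.7% of all genes. In cMyc-KO 12 rose and 9 fell, against 24.5% and 23.6%. Klf4, a reprogramming factor and target of LIF, had 340, 344 and 342 CPM in the Taf wild types, 226, 215 and 224 in Taf5l-KO and 232, 227 and 227 in Taf6l-KO. It rose from 318, 330 and 324 CPM to 408, 411 and 391 in cMyc-KO, and its contrast was -0.92 ± 0.05 (adjusted p = 1.06e-10) from nearly equal wild types. Tbx3 (-0.84), the cell adhesion gene Jam2 (-1.10), Zfp42, also called Rex1 (-0.62), Tet2, which oxidizes methylated cytosine (-0.68), Esrrb (-0.48) and Nanog (-0.35) were likewise lower, each with a fall in the Taf knockouts and a rise in cMyc-KO.

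The core factor Sox2 (0.08) was not called, and Pou5f1 had -0.17. Spp1, osteopontin, was lower (-1.10) because it rose more in cMyc-KO (1.42) than in the Taf knockouts (0.32). Tet1 was the opposite of Tet2, with a contrast of 1.03 from a Myc effect of -1.26. Gbx2 (-0.49 and -0.52) and Zfp296 (-0.38 and -0.43) had similar effects in both arms and no called contrast. Among 16 formative and primed epiblast genes, which mark the next developmental step, 6 were higher, including the DNA methyltransferases Dnmt3b (0.59) and Dnmt3a and the homeobox gene Otx2, and 6 lower, including Sox4 (-1.30), Foxd3 (-1.17) and Sox3 (-1.84). J1 (for Myc KO) minus J1 (for Taf KOs) was -0.74 (log2) for Sox4, -0.89 for Foxd3 and -0.31 for Sox3. The Taf knockouts minus cMyc-KO gave -0.56, -0.27 and -1.51.

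DNA replication and cell cycle genes were the list with the largest share of lower members among lists of 20 or more. Of 45 tested, 28 were lower and 6 higher in the contrast, against 20.5% and 20.7% of all genes, with a median of -0.22. In the Taf knockouts 31 fell and 1 rose, against 16.4% and 16.7% of all genes. In cMyc-KO 16 rose and 11 fell, against 24.5% and 23.6%. The list medians by library lay between -0.21 and -0.14 in the 6 Taf knockout libraries and between 0.07 and 0.08 in the cMyc-KO libraries. Pcna, the sliding clamp, fell from 421, 432 and 429 CPM to between 311 and 374 in the Taf knockouts, against 379, 350 and 357 in the Myc wild types and 393, 400 and 421 in cMyc-KO (contrast -0.51 ± 0.06). Polymerase alpha subunits Pola1 (-0.95) and Pola2 (-0.51), the GINS subunit Gins2 (-0.63), cyclin A2 (Ccna2, -0.46), Cdk1 (-0.45) and the helicase subunits Mcm6 (-0.28) and Mcm4 (-0.28) were lower. J1 (for Myc KO) minus J1 (for Taf KOs) was -0.86 (log2) for Pola1, 0.19 for Pola2 and 0.05 for Gins2. The Taf knockouts minus cMyc-KO gave -0.08, -0.70 and -0.67. The 6 higher genes were regulators of entry into S phase in part, Ccne1 (0.41), Cdk6 (0.46), E2f3 (0.29), Ccnd1 (0.22) and Cdt1 (0.24), together with the polymerase gene Pole (0.16), and all 6 fell in cMyc-KO.

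MYC target genes did not separate the arms as a list. Of 70 tested, 17 were higher and 21 lower in the contrast, against 20.7% and 20.5% of all genes, with a median of 0.00. Similar numbers fell in each arm, 30 in the Taf knockouts and 31 in cMyc-KO, against 16.4% and 23.6% of all genes. The 17 higher members all fell in cMyc-KO, among them the sorbitol dehydrogenase Sord (1.63), the nuclear importer Ipo4 (0.92), the ribosome biogenesis factor Pes1 (0.69), the pyrimidine synthesis enzyme Cad (0.69) and lactate dehydrogenase A (Ldha, 0.57). Wild-type levels of Sord, Pes1, Cad and Ldha were higher in the Myc experiment by 2.03, 0.75, 0.87 and 1.17 (log2). The Taf knockouts minus cMyc-KO gave -0.41, -0.06, -0.18 and -0.60 for them. For Ipo4 these values were -0.31 and 1.24. Of the 21 lower members, 16 fell in the Taf knockouts and 10 rose in cMyc-KO, among them Pcna, Plk1, Mcm4, the pseudouridine synthase gene Dkc1 and the nuclear transport genes Ran and Ranbp1. Of 55 ribosome biogenesis factors, 11 were higher and 12 lower, near the 20.7% and 20.5% of all genes. The helicase Ddx21 had the largest difference: it fell from 695 ± 11.5 to 341 ± 18.1 CPM in cMyc-KO and from 425 ± 4.86 to 394 ± 4.45 and 378 ± 3.53 in the Taf knockouts (contrast 0.89 ± 0.05).

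Promoters were searched for CACGTG, the E-box that MYC and MAX bind, which reads the same on both strands. In the 300 bases from 250 before to 50 after the start of each gene (RefSeq, GRCm38.p6, 9590 of the tested genes matched), 10.4% of promoters held it, against 9.92% of genes higher and 11.6% of genes lower in the contrast. Of 63 MYC targets with a promoter, 19 (30.2%) held it, 8 of 16 that were higher in the contrast and 5 of 20 that were lower. The following promoters, written 5′ to 3′ with CACGTG in capitals, are shown because they carry the motif in genes of each kind: Ldha and Ipo4 were higher in the contrast, Stag3 was lower, and Thumpd2 fell in both arms without a called contrast.
Ldha (chr7:46845554-46845853, + strand): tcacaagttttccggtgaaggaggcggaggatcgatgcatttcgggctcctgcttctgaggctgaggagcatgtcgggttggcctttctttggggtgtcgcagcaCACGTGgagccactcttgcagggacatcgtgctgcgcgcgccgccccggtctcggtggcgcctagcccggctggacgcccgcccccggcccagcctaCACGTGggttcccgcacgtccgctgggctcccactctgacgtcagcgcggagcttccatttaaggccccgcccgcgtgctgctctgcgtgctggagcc
Ipo4 (chr14:55635635-55635934, - strand): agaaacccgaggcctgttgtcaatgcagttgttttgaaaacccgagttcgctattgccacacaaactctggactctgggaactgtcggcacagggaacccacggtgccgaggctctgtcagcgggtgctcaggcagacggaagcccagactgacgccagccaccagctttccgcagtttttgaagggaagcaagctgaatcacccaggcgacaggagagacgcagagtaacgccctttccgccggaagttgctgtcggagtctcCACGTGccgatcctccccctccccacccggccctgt
Stag3 (chr5:138280259-138280558, + strand): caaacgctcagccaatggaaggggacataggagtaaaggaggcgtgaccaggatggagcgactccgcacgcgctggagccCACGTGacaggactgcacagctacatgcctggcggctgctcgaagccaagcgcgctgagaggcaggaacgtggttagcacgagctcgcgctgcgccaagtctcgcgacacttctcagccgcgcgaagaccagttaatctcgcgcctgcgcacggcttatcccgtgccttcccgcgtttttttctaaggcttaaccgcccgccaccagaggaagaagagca
Thumpd2 (chr17:81065036-81065335, - strand): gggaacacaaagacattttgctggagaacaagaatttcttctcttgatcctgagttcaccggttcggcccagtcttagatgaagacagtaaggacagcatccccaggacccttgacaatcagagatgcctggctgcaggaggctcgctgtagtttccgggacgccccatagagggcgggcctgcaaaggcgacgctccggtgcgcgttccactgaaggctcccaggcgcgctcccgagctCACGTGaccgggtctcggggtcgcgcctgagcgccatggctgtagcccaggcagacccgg
Ldha holds the motif at -145 and -48 relative to the start, Ipo4 at 15, Stag3 at -170 and Thumpd2 at -10. Ipo4, on chromosome 14, went from 162, 169 and 173 CPM to 99.3, 91.6 and 83.2 in cMyc-KO and from 209 ± 2.31 to 233 ± 9.39 and 198 ± 4.92 in the Taf knockouts. Ldha fell from 1702 ± 55.3 to 1360 ± 73.6 CPM in cMyc-KO and rose from 755 ± 19.8 to 921 ± 45.5 and 872 ± 3.23. A match describes these letters only and does not show a bound site.

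Energy and translation genes had small contrasts, with medians of -0.14 and -0.12. Of 38 oxidative phosphorylation genes, 14 were lower and none higher, with Cox6c (-0.59), Cox5a (-0.48) and Sdhb (-0.39) in front, and of 80 cytosolic ribosomal protein genes 18 were lower and 4 higher, against 20.5% and 20.7% of all genes. Both counts depended on cMyc-KO replicate 3: without it 22 oxidative phosphorylation and 38 ribosomal protein genes were lower. The list medians in that library were -0.06 and -0.10, against 0.11 to 0.13 and 0.10 to 0.14 in the other 2 cMyc-KO libraries. Among amino acid stress genes driven by ATF4, asparagine synthetase (Asns, -0.88) was lower through its rise in cMyc-KO from 244 ± 2.63 to 454 ± 9.21 CPM, and Sesn2 (0.59) and Stc2 were higher through falls there. Of 36 such genes, 38.9% were called, near the 41.3% of all genes, with 5 higher and 9 lower, and 31 had lower wild-type levels in the Myc experiment (median -0.45). J1 (for Myc KO) minus J1 (for Taf KOs) was -0.81 (log2) for Asns, 0.64 for Sesn2 and 1.16 for Stc2. The Taf knockouts minus cMyc-KO gave -0.07, -0.06 and 0.72.

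Interferon and antigen presentation genes had 10 of 19 members lower and 3 higher in the contrast (median -0.40). Oas1a, an antiviral nucleotide synthetase, had 10.5, 12 and 12.1 CPM in the Myc wild types and 28.2, 30.4 and 24.7 in cMyc-KO, against 13 to 15.4 in the Taf knockouts and 14.9 to 15.8 in their wild types (contrast -1.34 ± 0.12). Bst2 (-0.86), Ifitm3 (-0.80), Tapbp (-0.71) and the antigen presentation genes B2m (-0.95) and H2-D1 (-0.90) were lower as well, whereas Ifitm1 (1.10), the signalling factor Irf9 (1.24) and the peptide transporter Tap1 (1.94) were higher.

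Lineage markers were mixed. Of 14 endoderm genes 6 were higher and 3 lower, and the 6 included the basement membrane genes Lama1 (1.09), Col4a1 (1.02), Col4a2 (1.00), Lamb1 (0.54) and Sparc (0.36), while the 3 lower genes were Sox7 (-1.34), Cubn (-2.03) and the receptor Pdgfra (-1.04). Lama1, which forms laminin 111, rose from 102, 99.3 and 100 CPM to between 127 and 166 in the Taf knockouts and fell from 154, 165 and 163 to 117, 114 and 99.2 in cMyc-KO. Wild-type levels of Col4a1, Col4a2 and Lamb1 were higher in the Myc experiment by 1.43, 1.19 and 0.61 (log2). The Taf knockouts minus cMyc-KO gave -0.41, -0.20 and -0.07 for these genes. Pax6, a neural transcription factor (1.33), and the neural intermediate filament gene Nes (0.96) were higher at low levels, 2 of 5 neuroectoderm genes. The call of Pax6 was lost in all 3 fits of log2 FPKM values, where its contrast was 0.45 or 0.46, and that of Nes in 1 of them (0.59). Of 19 germline genes 5 were lower, led by Stag3 and the piRNA factor Mael (-1.27), and 3 were higher, and all 19 had lower wild-type levels in the Myc experiment (median -0.74). The 20 endoderm markers summed to 1309 to 1332 FPKM in the Taf wild types, 1485 to 1549 in Taf5l-KO and 1655 to 1678 in Taf6l-KO, and to 2303 to 2391 in the Myc wild types and 2342 to 2449 in cMyc-KO, so the experiments differed by more than knockout and wild type did, and the part of this in the contrast was not tested. The 10 tested feeder fibroblast genes had 3 higher and 1 lower member, and their median contrast was 0.09.

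**Figure D4:**
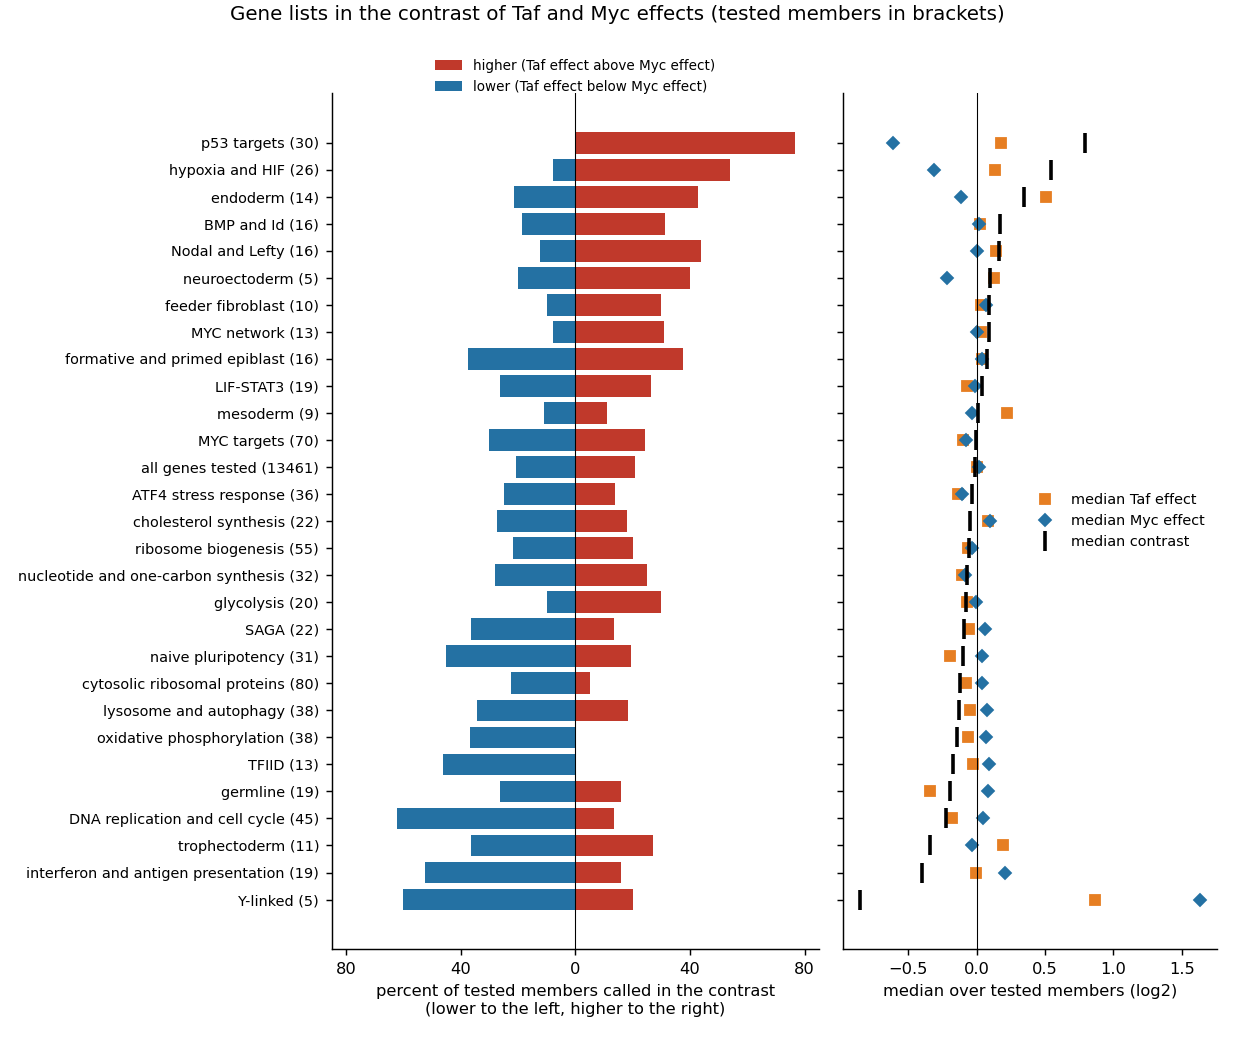
Gene lists in the contrast, with the percent of tested members called higher (red, to the right) or lower (blue, to the left) on the left panel and the median Taf effect, Myc effect and contrast (log2) on the right; the row for all 13461 genes gives the background of 20.7% and 20.5%. The p53 targets reach furthest to the higher side, and DNA replication and interferon genes are mainly on the lower side.

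Contrast calls were uneven along the genome, where 20.7% of all genes tested were higher and 20.5% lower. On chromosome 14, 230 of 476 tested genes were higher (48.3%) and 45 lower (9.45%), and the median contrast was 0.33. The chromosome median was between -0.39 and -0.29 in the 3 cMyc-KO libraries and between 0.00 and 0.02 in the 6 Taf knockout libraries, so the shift was in the Myc arm. Chromosome 14 held 3.54% of tested genes and 8.25% of those higher in the contrast, Ipo4, Irf9, Sall2 and Bmpr1a among the genes named by the lists. On chromosome 11, 345 of 1132 genes were higher (30.5%) and 197 lower (17.4%). The medians were 0.15 in Taf6l-KO and -0.06 in Taf5l-KO, so that the mean of the Taf knockouts stands for unequal values there. Genes on the X chromosome were lower in 158 of 471 cases (33.5%) and higher in 61 (13%). Their medians were -0.14 in Taf5l-KO, -0.12 in Taf6l-KO and 0.04 in the Myc arm. The Myc value rested on cMyc-KO replicate 3, with a median of 0.11 in that library and of -0.02 in each of replicates 1 and 2.

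**Figure D5:**
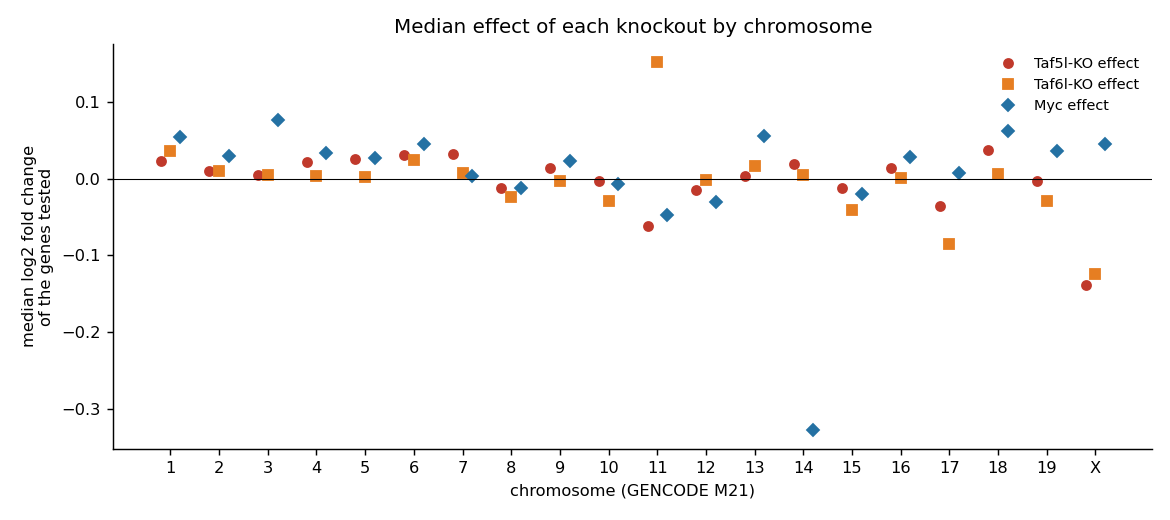
Median log2 fold change (vertical axis) of the tested genes on each chromosome (horizontal axis) for the Taf5l-KO, Taf6l-KO and Myc effects. Chromosome 14 is low for the Myc effect, chromosome 11 is high for Taf6l-KO, and the X chromosome is low for both Taf knockouts.

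Without chromosomes 11, 14, X and Y, the contrast called 2224 genes higher and 2213 lower among 11362. The p53 targets then had 20 of 26 higher and none lower, the naive genes 6 higher and 11 lower of 28, and the DNA replication genes 6 higher and 25 lower of 43. Several other counts moved by more than 1.5 times, and members on the removed chromosomes were also out of the test. Among them, 10 of 57 MYC targets were higher in place of 17 of 70, and 3 of 10 formative genes lower in place of 6 of 16. BMP genes had 3 of 14 higher in place of 5 of 16, and germline genes 3 of 16 lower in place of 5 of 19. Nodal pathway genes had 1 of 16 lower in place of 2. Nucleotide synthesis genes had 4 of 25 higher in place of 8 of 32. Cholesterol genes had 3 of 19 lower in place of 6 of 22, and lysosome genes 4 of 29 higher in place of 7 of 38.

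The mean over both Taf knockouts stood for similar values in most genes. Setting each Taf knockout alone against the Myc effect called 4954 genes for Taf5l-KO (36.8%) and 5493 for Taf6l-KO (40.8%), and 4041 of the 5553 contrast genes were called the same way in both. Higher and lower genes were 19% and 17.8% of all for Taf5l-KO, and 20.4% each for Taf6l-KO. A difference of at least 2-fold was reached by 7.4% and 8.86%, against 6.17% for the Myc effect alone, 2.17% for the mean Taf effect, 2.07% for Taf5l-KO and 3.01% for Taf6l-KO. The Taf knockouts themselves differed for 1725 genes (12.8%), 5.65% higher and 7.17% lower in Taf6l-KO and 0.505% by at least 2-fold. Of these 1725, 44.1% were higher in Taf6l-KO, and 1003 of the contrast genes were among them. Scaled by library totals, the comparison called 1003 genes higher and 588 lower, so that 63% of its calls were higher. Only 4 genes were called in opposite directions against the Myc effect: Taf5l, the trafficking GTPases Sar1b and Arf2, and Meis2, named because they are the whole of that count.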

How the data were processed

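RNA was measured in 15 libraries, 3 in each of 5 groups. The tables used were the estimated counts deposited by the authors, of which 100% are whole numbers, and their FPKM values. Salmon 0.8.2, DESeq2 1.14.1 and mm9 appear in the submitters' processing notes without a role. Annotation and filters were not given in the sources used here. Per the labels' protocols, ribosomal RNA was depleted and the library kit was strand-specific. No coordinates were taken from the files.

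Gene types and chromosomes came from GENCODE M21, matched by Ensembl ID for 32620 of 37310 rows (87.4%). Of 20175 protein-coding rows, 53 histone rows and the mitochondrial gene mt-Nd6, which lacks a poly(A) tail, were left out. Where a symbol has several rows, the row of highest mean count is used.

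The deposited counts of all 15 libraries were fitted with edgeR 4.0.16 (R 4.3.3; filterByExpr, TMM, quasi-likelihood test), with 5 groups and no covariate. All adjusted p-values are Benjamini-Hochberg values over the 13461 genes tested, from this two-sided test. CPM use TMM-scaled totals, and log2 CPM a prior count of 2. Standard errors and 95% intervals come from the fit. The procedure was tested on simulated counts. DESeq2 1.42.0, limma 3.58.1 (voom with a weight per experiment, and log2(FPKM + 1) or log2(FPKM + 0.1) from the authors' FPKM), other scalings, no filter, a replicate block and each library left out were alternatives.

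The genes named were the targeted genes, the SAGA and MYC network genes, the 8 largest contrasts each way with a mean of at least 100 counts, called for both Taf knockouts and without overlap, 5 genes per pattern of both arms, and up to 5 genes per list by smallest p. Some genes that this rule names are not reported here. Other genes were named after their values were seen. The 28 lists had 812 entries, of which 784 matched and 730 were tested. Members and lists were chosen with earlier results of these data known.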

Additional observations from a re-analysis of the deposited data

How the results depend on the processing

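The contrast called 5553 genes with edgeR and between 3998 (log2(FPKM + 0.1)) and 6140 (without cMyc-KO replicate 3) under the alternatives; every gene called in both the main fit and an alternative kept its direction. Over all pairs of a named gene's value and an alternative, 5751 stayed on the same side of the threshold, called or not, 82 lost the call and 17 gained it. Atxn7l2 and Max lost their calls most often. The contrast of Uty moved from -1.06 to -0.67 without cMyc-KO replicate 3.

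Requiring a 2-fold difference left 1095 genes for the contrast, 996 and 1192 for Taf5l-KO and Taf6l-KO against the Myc effect, 292 for the mean Taf effect, 830 for the Myc effect and 68 for Taf6l-KO against Taf5l-KO. That last comparison, Taf6l-KO minus Taf5l-KO, called 1725 genes in the main fit, 2931 with voom weights, 986 without chromosomes 11, 14, X and Y, 989 with log2(FPKM + 1), 958 with log2(FPKM + 0.1), 893 with log2(FPKM + 1) and no filter, and 1051 to 2751 with 1 library left out (lowest without Taf6l-KO replicate 3, highest without cMyc-KO replicate 3, and 1140 without Taf5l-KO replicate 1). The causes were not tested.

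With the replicate number as a block the contrast called 4887 genes, and 4317 and 4858 for the single Taf knockouts. Deviations of same-numbered libraries had correlations between -0.28 and 0.03, so the numbers do not pair the libraries, and the block is only an alternative. Depth limits the low genes: of 20121 genes, 13461 could be tested, and the wider spread of the Myc libraries limits the precision of every contrast value.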
